A study of Homo sapiens with 6 samples.

Results

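The 34 genes described here carry cells from G2 through mitosis to cytokinesis. They were chosen by name, and every probe set that the platform annotation assigns to exactly 1 of them was used. All 34 were measured, out of 18338 genes, by 66 of the 41751 probe sets in the table. No filter on low values was applied, so every member entered the comparison, and 1 further probe set that is annotated to a member together with another gene was left out. The study compared 2 stable Tet-On lines of HEK293, an established human embryonic kidney line in which doxycycline switches on the inserted gene. The control line carries a control vector and the myocilin line a vector that expresses myocilin, with 3 arrays of total RNA per line. The protocols, worded alike for both lines, give 0.2 or 1 µg/ml doxycycline for 48 h in medium with hygromycin B and G418, but not which dose lies behind which array. RNA was taken after induction by the extraction text, yet a note naming doxycycline stands with the myocilin arrays alone, and any effect of the drug itself cannot be told apart from that of the vector if the control line went without it. Each vector is represented by 1 stable line. No label states that the arrays of a line are separate cultures, and the p-values then cover only array-to-array spread, which may be technical.

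Entry into mitosis is driven by the kinase CDK1 bound to A- and B-type cyclins, with CDC25 phosphatases removing the phosphates that hold CDK1 back. Polo-like, Aurora, NEK2 and TTK kinases then organise the spindle, kinetochores tie chromosomes to microtubules and signal to the spindle checkpoint, and the anaphase-promoting complex with CDC20 ends mitosis by marking cyclin B and securin for destruction. Transcripts of most of these genes peak in G2 and mitosis under FOXM1 and the MuvB-containing complexes, which act through cell cycle homology regions in their promoters, and the set is widely read as a gauge of dividing cells.

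Values are centred log2 expression, deposited with a median of 0 on every array. A gene's value is the mean of its probe sets, a difference is myocilin minus control, and a change is a limma p-value, adjusted by Benjamini-Hochberg over all 18338 genes, under 0.05. The centring removes brightness, so a level can be compared between arrays for 1 gene but not between genes, and the defining markers of HEK293 cannot be checked for presence. MYOC, the induced gene, read -6.71, -8.32 and -8.29 in the control arrays and 0.21, 0.20 and 0.24 in the myocilin arrays, the direction of the labels. In RNA from a whole culture, a change in the share of cells in G2 and mitosis and a change in transcript per cell cannot be told apart.

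The mitotic program did not move in 1 direction. Of the 34 members, 4 rose in the myocilin line (PLK1, TTK, CDC20 and MKI67), 2 fell (NDC80 and CENPE) and 28 did not pass the threshold. These 6 are 17.6% of the members, close to the 15.6% of all genes called (8.28% higher and 7.35% lower). An unadjusted limma p under 0.05 was reached by 17 of the 34 members and by 5503 of the 18338 genes. The median size of the difference, whatever its sign, was 0.154 for the members and 0.098 over all genes. Differences ran from -0.55 for NDC80 to 0.30 for PLK1, none as large as 1 log2 unit, and the median was -0.06 against 0.02 over all genes. For 26 of the 34 members the difference was smaller than 0.2 in either direction, and for 32 the 95% interval lay within -0.5 and 0.5. Differences over 0.2 were about as rare over all genes. Of these, 20.7% had a larger difference, in either direction, than CCNB1 at -0.204, and 22.4% a larger one than MKI67 at 0.194. The mean over the members was 0.00, 0.03 and 0.02 on control arrays 1 to 3 and -0.01, -0.01 and -0.05 on myocilin arrays 1 to 3. The arrays of the lines did not overlap for 21 of the 34 members, a larger share than the 6405 of 18338 genes (34.9%). Of the 21, 8 were higher and 13 lower, while over all genes 3467 were higher and 2938 lower. The number called fell to 2 without myocilin array 1, to 3 without control array 1 and to 3 without control array 2. In these fits the share of all genes called fell as well, to 8.8%, 12.1% and 10.3%. The number that rose depended most on single arrays, at 0 without myocilin array 1, 1 without each of control arrays 1 and 2 and myocilin array 2, and 2 without myocilin array 3.

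**Figure D1:**
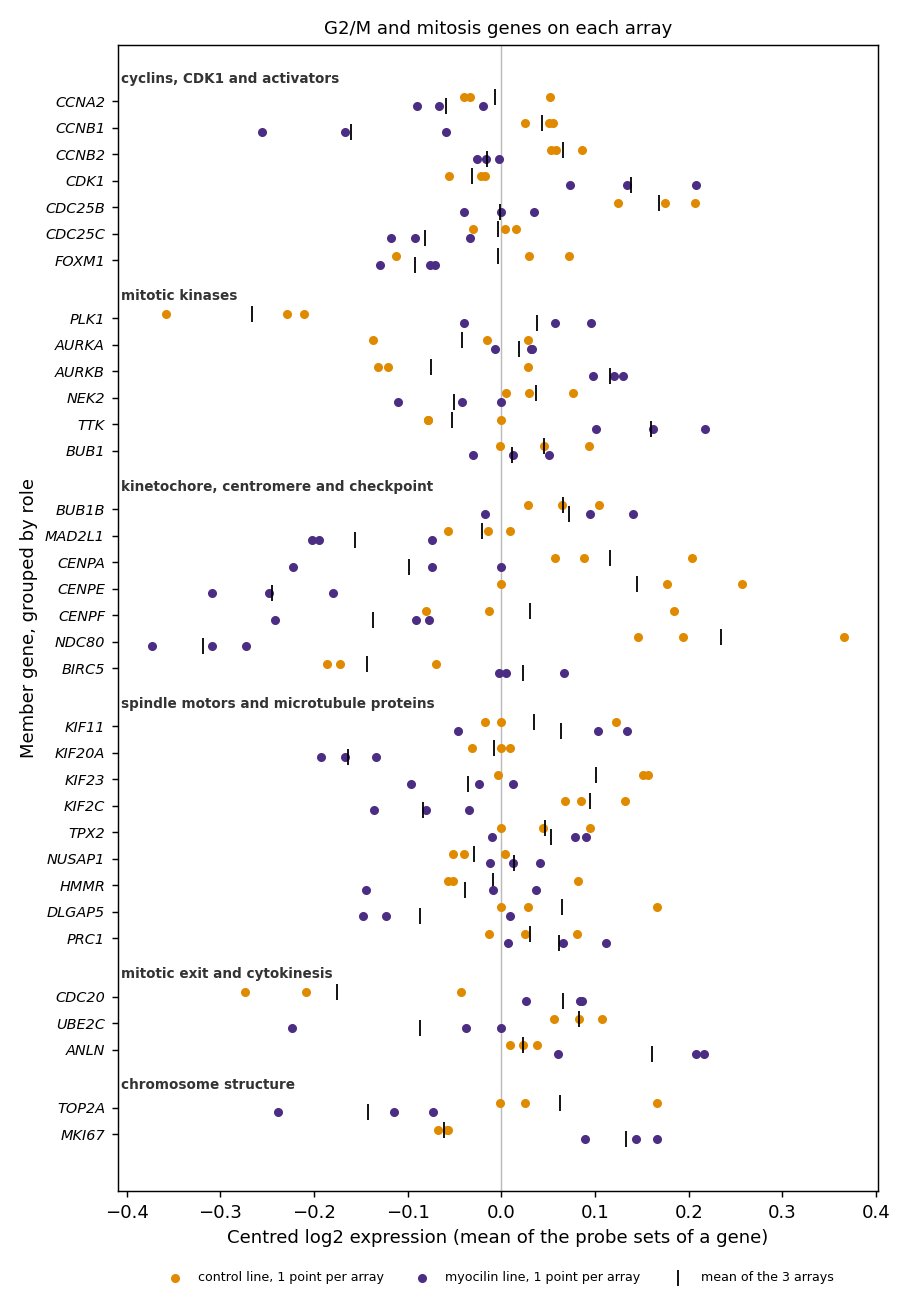
Centred log2 expression (horizontal axis) of each of the 34 members (vertical axis, grouped by role), with 1 point per array, orange for the control line and purple for the myocilin line, and a black mark at the mean of 3 arrays. The lines are farthest apart for NDC80 and CENPE, higher in control, and for PLK1, higher in myocilin.

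The promoters of the 2 members that fell, and of PLK1 and CDC20, which rose most, are shown for the words that FOXM1, MuvB complexes and NF-Y are known to act through. They come from RefSeq (GRCh38.p14), each 300 bases long, from 250 before to 50 after the annotated start, printed on the gene's strand. Capitals mark TTTGAA or TTTAAA, the core words of a cell cycle homology region, and CCAAT, the NF-Y word, on either strand, so that TTCAAA and ATTGG are their reverse forms. TTTAAA reads alike on both strands, and none of the 3 words contains another, although copies can adjoin or overlap.
NDC80, chr18:2571307-2571606, plus strand: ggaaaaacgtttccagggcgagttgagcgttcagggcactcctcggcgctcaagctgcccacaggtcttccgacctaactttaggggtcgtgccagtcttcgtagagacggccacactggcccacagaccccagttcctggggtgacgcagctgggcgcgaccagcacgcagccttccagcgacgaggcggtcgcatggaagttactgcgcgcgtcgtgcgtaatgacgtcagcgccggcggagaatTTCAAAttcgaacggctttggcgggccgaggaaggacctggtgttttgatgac
CENPE, chr4:103198294-103198593, minus strand: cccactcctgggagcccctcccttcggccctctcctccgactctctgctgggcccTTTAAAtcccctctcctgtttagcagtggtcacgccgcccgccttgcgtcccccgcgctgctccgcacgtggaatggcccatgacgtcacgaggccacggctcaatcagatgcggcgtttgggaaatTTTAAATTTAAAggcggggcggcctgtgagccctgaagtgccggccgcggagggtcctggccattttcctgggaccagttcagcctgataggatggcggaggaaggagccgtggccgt
PLK1, chr16:23678639-23678938, plus strand: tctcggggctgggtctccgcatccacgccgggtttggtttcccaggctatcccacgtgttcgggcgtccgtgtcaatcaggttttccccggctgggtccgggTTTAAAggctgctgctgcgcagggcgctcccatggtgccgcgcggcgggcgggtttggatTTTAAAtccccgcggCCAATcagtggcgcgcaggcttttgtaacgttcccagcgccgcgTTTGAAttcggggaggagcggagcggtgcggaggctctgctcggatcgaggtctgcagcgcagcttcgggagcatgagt
CDC20, chr1:43358731-43359030, plus strand: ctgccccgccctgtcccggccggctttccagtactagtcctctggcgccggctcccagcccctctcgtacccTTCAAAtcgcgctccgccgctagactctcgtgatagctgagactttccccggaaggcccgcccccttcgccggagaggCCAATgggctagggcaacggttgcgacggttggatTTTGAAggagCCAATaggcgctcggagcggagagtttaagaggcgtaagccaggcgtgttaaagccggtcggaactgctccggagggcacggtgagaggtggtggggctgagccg
Of the 28 members with an entry, 22 (78.6%) held TTTGAA or TTTAAA, against 24.0% of 35116 promoters of that length, and 21 (75.0%) held CCAAT, against 34.6%. Each member was counted once, while the 35116 were not reduced to 1 per gene or limited to the genes measured. FOXM1, AURKA, TTK, BIRC5, TPX2 and UBE2C had no entry. A homology word was found in the promoters of both members that fell and of the 3 members that rose with an entry, as it was in 17 of the 23 with an entry that did not pass. NDC80 and CENPE had no CCAAT in their windows, while PLK1, CDC20 and MKI67 each had at least 1. These matches are words in a window and were tested for no function.

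The kinetochore, centromere and checkpoint genes held both members that fell: 2 of 7 fell, 0 rose and 5 did not pass, with a median of -0.17. Over all genes 7.35% fell and 8.28% rose, with a median of 0.02. TTK, a checkpoint kinase that rose, and BUB1, a kinetochore kinase, were counted with the mitotic kinases. NDC80 encodes the subunit of the kinetochore complex that grips microtubules. Its probe set read 0.19, 0.37 and 0.15 in control and -0.27, -0.31 and -0.37 in myocilin, without overlap. It fell by 0.55 with a standard error of 0.07, from 0.24 ± 0.12 to -0.32 ± 0.05 (SD, n = 3 each), so that the control level was 1.47-fold higher (limma adjusted p = 0.00124). NDC80 lies on chromosome 18, where the median of 274 genes was -0.21 and 48.2% fell, the lowest median of any chromosome. Its 50 nearest genes had a median of -0.26, and with that median subtracted NDC80 was at -0.30, still past the threshold (limma adjusted p = 0.0189).

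CENPE encodes the kinesin that carries chromosomes to the spindle equator from the kinetochore. It read 0.18, 0.26 and 0.00 in control and -0.31, -0.18 and -0.25 in myocilin, every myocilin array below every control array. It fell by 0.39 with a standard error of 0.08, a control level 1.31-fold higher (limma adjusted p = 0.00904). Its neighbours on chromosome 4 had a median of -0.05, and the difference after subtracting them was -0.34 (limma adjusted p = 0.021). NDC80 and CENPE passed the threshold in each of the 14 alternatives run.

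The other kinetochore members gave no call. CENPA, the histone H3 variant that marks centromeres, read 0.06, 0.20 and 0.09 in control and -0.07, -0.22 and 0.00 in myocilin, which do not overlap, with a difference of -0.22 (limma adjusted p = 0.0786, 95% interval -0.38 to -0.05). MAD2L1, the checkpoint protein that holds CDC20, differed by -0.14 without overlap (limma adjusted p = 0.162). CENPF, a large coat protein of the kinetochore, differed by -0.17 with overlap, and its probe sets disagreed at -0.36 and 0.03. BUB1B, which builds the mitotic checkpoint complex, differed by 0.01, with a 95% interval of -0.13 to 0.15. BIRC5, the survivin subunit of the chromosomal passenger complex, was the member of this class with the highest value, at 0.17 without overlap (limma adjusted p = 0.0877), and its 4 probe sets ran from 0.02 to 0.38.

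Among the mitotic kinases 2 of 6 rose, 0 fell and 4 did not pass, with a median of 0.13. Over all genes 8.28% rose and the median was 0.02. With the 50 nearest genes subtracted, the number of these kinases that rose was 0. PLK1, the polo-like kinase that promotes entry, centrosome maturation and cytokinesis, read -0.23, -0.21 and -0.36 in control and 0.06, -0.04 and 0.10 in myocilin. All 3 myocilin arrays lay above all 3 control arrays. It rose by 0.30 with a standard error of 0.07, or 1.23-fold (limma adjusted p = 0.0144). PLK1 lies on chromosome 16, the chromosome with the highest median, 0.14, where 27.5% of 777 genes rose. With its 50 nearest genes subtracted, whose median was 0.13, it read 0.18 and did not pass (limma adjusted p = 0.113), and it also did not pass without myocilin array 1 (0.29, limma adjusted p = 0.0564).

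TTK, the checkpoint kinase also called MPS1, read -0.08, 0.00 and -0.08 in control and 0.22, 0.16 and 0.10 in myocilin, without overlap. It rose by 0.21 with a standard error of 0.06, or 1.16-fold (limma adjusted p = 0.0385). It lies on chromosome 6, where 22.7% of 1006 genes rose, and after subtraction of its neighbours, which had a median of 0.11, it read 0.10 (limma adjusted p = 0.312). The call was also lost without control array 1, 2 or 3 (0.20, 0.24 and 0.20) and without myocilin array 1 or 2 (0.18 and 0.21), with limma adjusted p between 0.0533 and 0.137. Its single probe set did not pass in the fit over all probe sets (limma adjusted p = 0.0895).

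The Aurora kinases differed from each other in size but neither passed. AURKB, the catalytic subunit of the passenger complex, read -0.13, -0.12 and 0.03 in control and 0.13, 0.10 and 0.12 in myocilin, without overlap. Its difference was 0.19 (limma adjusted p = 0.068), and both of its probe sets were close to that, at 0.18 and 0.21. Without control array 3 it was 0.24 and passed (limma adjusted p = 0.041). AURKA, which acts at the spindle poles, differed by 0.06 with overlap, and its 3 probe sets read -0.01, -0.01 and 0.20. NEK2, a kinase of centrosome separation, was at -0.09 and BUB1, a kinetochore kinase, at -0.03, the latter averaged over 5 probe sets from -0.11 to 0.08.

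In the class of cyclins, CDK1 and activators 0 of 7 passed the threshold, 1 was positive and 6 were negative. An unadjusted limma p under 0.05 was found for 3 of the 7 (CCNB1, CDK1 and CDC25B), against 5503 of all 18338 genes. CDK1, the kinase itself, and CCNB1, its main mitotic cyclin, lay on opposite sides of 0. CDK1 read -0.06, -0.02 and -0.02 in control and 0.13, 0.21 and 0.07 in myocilin, without overlap, a difference of 0.17 (limma adjusted p = 0.0796). All 4 of its probe sets were positive, from 0.08 to 0.30. Its 50 nearest genes on chromosome 10 had a median of 0.09, and with them subtracted CDK1 read 0.08. CCNB1 read 0.02, 0.05 and 0.05 in control and -0.17, -0.06 and -0.26 in myocilin, also without overlap, a difference of -0.20 (limma adjusted p = 0.0608). Its probe sets read -0.30 and -0.11, and it passed without myocilin array 2 (-0.25, limma adjusted p = 0.045).

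CDC25B, a phosphatase that activates CDK1 at entry, read 0.12, 0.17 and 0.21 in control and 0.04, -0.04 and 0.00 in myocilin, without overlap. Its difference was -0.17 (limma adjusted p = 0.07). CDC25C, a phosphatase of the same family, was at -0.08, with probe sets at -0.22, -0.07 and 0.06. CCNA2, the cyclin of S phase and G2, was at -0.05 and CCNB2, the second B-type cyclin, at -0.08. FOXM1, the transcription factor that drives much of this set, was at -0.09 with a 95% interval of -0.23 to 0.06.

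**Figure D2:**
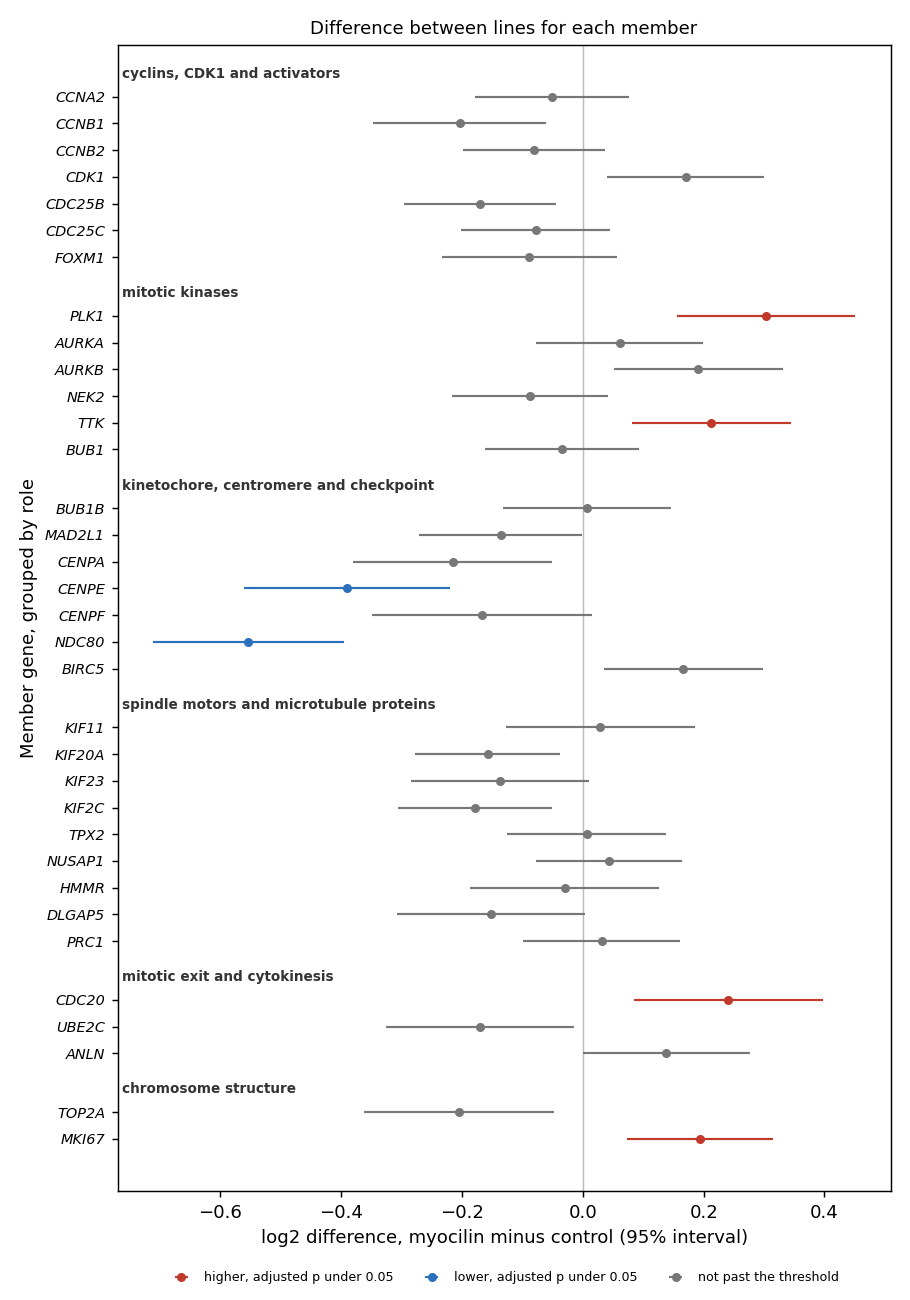
log2 difference, myocilin minus control (horizontal axis), for each member (vertical axis, grouped by role), with its 95% interval from the limma fit on 3 arrays per line, in red for the 4 members that rose, blue for the 2 that fell and grey for the 28 not past the threshold. NDC80 at -0.55 and PLK1 at 0.30 mark the extremes.

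Of the 9 spindle motors and microtubule proteins 0 passed, with differences from -0.18 to 0.04 and a median of -0.03. For 2 of the 9 the unadjusted limma p was under 0.05, against 5503 of all 18338 genes. KIF2C, a kinesin that takes microtubules apart at centromeres, read 0.07, 0.13 and 0.08 in control and -0.14, -0.08 and -0.03 in myocilin, without overlap. Its difference was -0.18 (limma adjusted p = 0.0628), with probe sets at -0.14 and -0.22. KIF20A, a motor of the central spindle, read -0.03, 0.00 and 0.01 in control and -0.19, -0.17 and -0.13 in myocilin, a difference of -0.16 without overlap (limma adjusted p = 0.0784). KIF23, the motor of the centralspindlin complex, was at -0.14 and DLGAP5, a spindle assembly protein, at -0.15, both with overlap. KIF11, the motor that separates spindle poles, was at 0.03, TPX2, the activator of Aurora A, at 0.01, and HMMR, a spindle pole protein, at -0.03. NUSAP1, a microtubule bundler, was at 0.04 and PRC1, which crosslinks the central spindle, at 0.03. For these 5 genes the arrays of the lines overlapped.

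Of the genes of mitotic exit and cytokinesis, 1 of 3 rose, while 8.28% of all genes did. CDC20, the activator of the anaphase-promoting complex, read -0.21, -0.27 and -0.04 in control and 0.08, 0.03 and 0.09 in myocilin. The lines did not overlap, although control array 3 lay close to the myocilin arrays. It rose by 0.24 with a standard error of 0.07, or 1.18-fold (limma adjusted p = 0.0453). Its neighbours on chromosome 1 had a median of -0.03, and with them subtracted it read 0.27 and stayed past the threshold (limma adjusted p = 0.0374). The call was lost without control array 1 or 2 (0.22 and 0.19) and without myocilin array 1, 2 or 3 (0.23 to 0.26), with limma adjusted p between 0.0827 and 0.132. UBE2C, the ubiquitin-conjugating enzyme that works with the same complex, read 0.08, 0.06 and 0.11 in control and -0.04, -0.22 and 0.00 in myocilin, a difference of -0.17 (limma adjusted p = 0.134). ANLN, the anillin scaffold of the cleavage furrow, was at 0.14 without overlap (limma adjusted p = 0.168).

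The 2 genes of chromosome structure lay on opposite sides of 0. MKI67, the Ki-67 antigen that coats mitotic chromosomes and serves as a proliferation marker, read -0.06, -0.06 and -0.07 in control and 0.17, 0.14 and 0.09 in myocilin, without overlap. It rose by 0.19 with a standard error of 0.05, or 1.14-fold (limma adjusted p = 0.0392). Its 4 probe sets ran from 0.07 to 0.28, and 1 of them passed alone. MKI67 lies on chromosome 10, where 21.3% of 715 genes rose, and with its neighbours, at a median of 0.13, subtracted it read 0.06 (limma adjusted p = 0.516). The call was lost when any 1 of the 6 arrays was left out (0.18 to 0.22, limma adjusted p from 0.0536 to 0.133). TOP2A, the topoisomerase that untangles sister chromatids, read 0.00, 0.17 and 0.03 in control and -0.07, -0.12 and -0.24 in myocilin, without overlap, a difference of -0.21 (limma adjusted p = 0.0786). All 3 of its probe sets were negative, from -0.25 to -0.17.

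At the level of probe sets, 2 of the 66 rose (those of PLK1 and 1 of MKI67) and 2 fell (NDC80 and CENPE), or 6.06%, against 11.0% of all probe sets (5.46% higher and 5.56% lower). The arrays of the lines did not overlap for 30 of the 66, a larger share than the 12677 of all 41751 probe sets (30.4%). Of the 30, 13 were higher and 17 lower, while over all probe sets 6478 were higher and 6199 lower. With 1 array left out the number called was between 1 and 3, at 1 without control array 1, without myocilin array 1 or without myocilin array 3 and 2 without control array 2. For 15 members the gene rests on 1 probe set, among them 5 of the 6 that changed. In the 19 members with several probe sets, 0 had them called in opposite directions and 0 had them more than 0.5 apart, while 5 had differences of both signs.

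**Figure D3:**
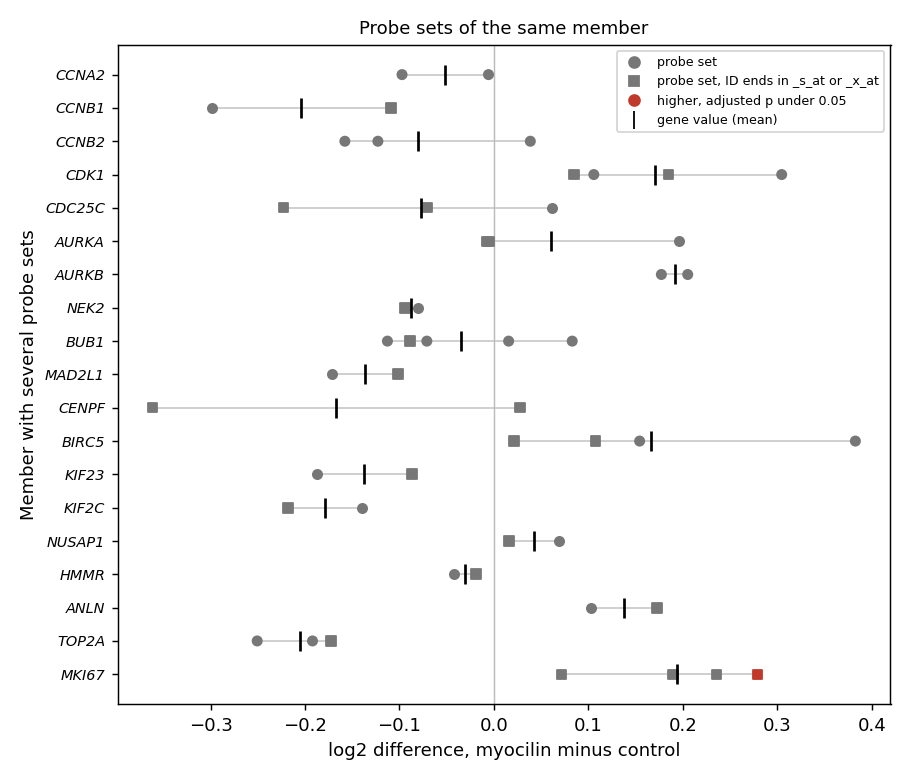
log2 difference, myocilin minus control (horizontal axis), of each probe set of the 19 members with several (vertical axis), as circles or, where the ID ends in _s_at or _x_at, squares, with a black mark at the gene value. The probe sets of AURKB and TOP2A lie close together, those of CENPF and BIRC5 far apart, and 1 probe set of MKI67 (red) passed the threshold alone.

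The differences of the members went with those of their chromosomal neighbours. Across the 34 members, the difference of a member and the median of its 50 nearest genes correlated with Pearson's r of 0.75 and Spearman's rho of 0.53, and r was 0.66 over the 33 genes without NDC80. The genes share the same 6 arrays and are not independent, so this is a description. The agreement over all genes is not given here, so it is not shown to be particular to the members. Of the 14 members with a positive difference, 10 had neighbours with a positive median, and of the 20 with a negative one, 16 had neighbours with a negative median. PLK1, TTK and MKI67 lie on chromosomes 16, 6 and 10, the 3 with the highest medians (0.14, 0.09 and 0.11). With neighbours subtracted from every gene, 1 member rose (CDC20) and 2 fell (NDC80 and CENPE), and 11.3% of all genes were called. Whether the copy number of these chromosomes differs between the lines was not tested.

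**Figure D4:**
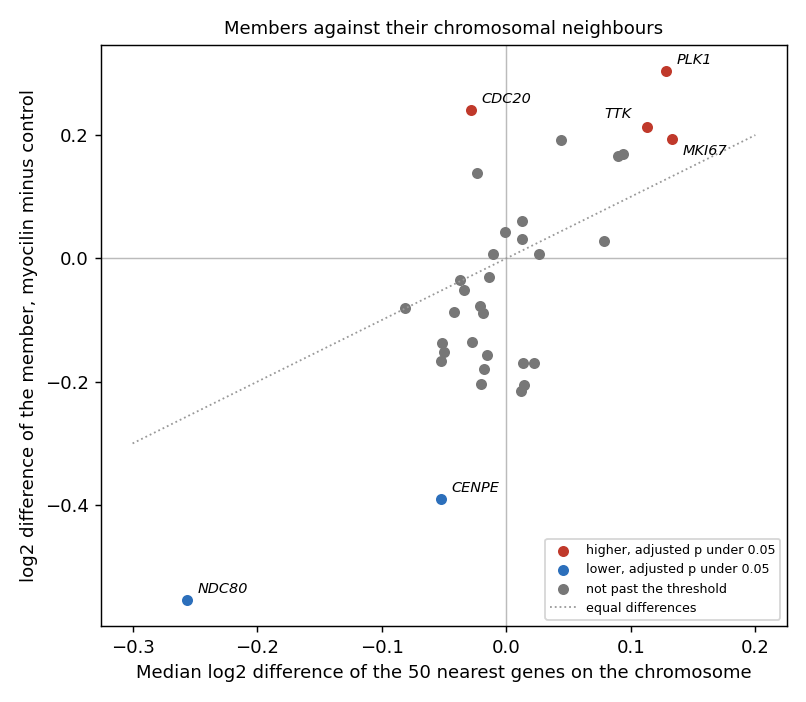
log2 difference, myocilin minus control, of each member (vertical axis) against the median difference of its 50 nearest genes on the chromosome (horizontal axis), with 1 point per member, red for the members that rose, blue for those that fell and grey for the rest, and a dotted line where both are equal. NDC80 sits at the lower left with neighbours at -0.26, PLK1, TTK and MKI67 at the upper right, and CDC20 and CENPE next to neighbours near 0.

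Other genes of mitosis, in 5 lists of 105 genes of which 102 were measured, moved in both directions as well. Of these, 11 rose and 11 fell, with a median of -0.01. The 22 are 21.6% of those measured, against 15.6% of all genes. Leaving out 1 array lowered the rises to between 5 and 9 and the falls to between 5 and 8. They were lowest without myocilin array 1 (5 and 5), with 7 and 5 without control array 2, 6 and 6 without myocilin array 2, 7 and 8 without control array 3, 9 and 7 without control array 1 and 8 and 7 without myocilin array 3. With neighbours subtracted, 3 rose and 10 fell.

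Among other genes of mitotic entry, 3 of 19 rose and 0 fell, or 15.8%, against 15.6% of all genes. Of the 3, 2 rose whichever array was left out. MASTL, the Greatwall kinase that keeps phosphatases off CDK1 targets, rose by 0.44 with a standard error of 0.06, and every myocilin array (0.38, 0.36 and 0.23) lay above every control array (-0.18, -0.05 and -0.12; limma adjusted p = 0.00254). PKMYT1, which phosphorylates and restrains CDK1, rose by 0.39 (limma adjusted p = 0.00434). Both passed whichever array was left out and with neighbours subtracted, at 0.37 and 0.30.

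Among other kinetochore and checkpoint genes 2 of 28 rose and 6 fell, or 28.6%, against 15.6% of all genes (8.28% higher and 7.35% lower). The falls numbered 2 without control array 2, 3 without control array 1, myocilin array 1 or myocilin array 2 and 4 without myocilin array 3, and the rises 1 without control array 3, myocilin array 1 or myocilin array 2. SKA1, part of the complex that couples kinetochores to shrinking microtubules, read 0.33, 0.13 and 0.00 in control and -0.27, -0.40 and -0.60 in myocilin. It fell by 0.57 with a standard error of 0.10 (limma adjusted p = 0.00641). Like NDC80 it lies on chromosome 18, and with neighbours subtracted it was at -0.39 (limma adjusted p = 0.0436). CENPK, of the inner kinetochore, fell by 0.40 and did not pass without control array 1 or 2. CENPN, an inner kinetochore protein on chromosome 16, and MIS12 of the outer kinetochore rose by 0.28 and 0.25, and neither passed with neighbours subtracted. MIS12 also did not pass without control array 1 or 3 or myocilin array 1 or 2.

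In the passenger complex, cohesin and condensin list 1 of 22 rose and 2 fell, or 13.6%, against 15.6% of all genes. The cohesin genes STAG1 and SMC1A fell by 0.38 and 0.35, and WAPL, which releases cohesin, rose by 0.31. All 3 passed whichever array was left out and with neighbours subtracted. In the list of other spindle and cytokinesis genes 3 of 15 rose and 3 fell, or 40%. CEP55, of midbody abscission, was at 0.32 and the kinesin KIF22 at 0.28, against the kinesins KIF4A at -0.26 and KIF15 at -0.24. The rises numbered 1 without myocilin array 1 or 2, and the falls 0 without myocilin array 1 and 1 without control array 2 or 3 or myocilin array 2 or 3. CEP55 did not pass without control array 2 or myocilin array 1 or 2, and KIF4A did not pass without myocilin array 1. KIF15 did not pass without control array 2 or 3 or myocilin array 1, 2 or 3. With neighbours subtracted neither CEP55 nor KIF22 passed. Of 18 genes of the anaphase-promoting complex and separase 2 rose and 0 fell, or 11.1%. ANAPC2, its cullin subunit, was at 0.31 and FBXO5, its inhibitor EMI1, at 0.22. ANAPC2 did not pass without control array 2, myocilin array 1 or myocilin array 3, and FBXO5 did not pass without control array 1, 2 or 3 or myocilin array 1 or 2. Neither passed with neighbours subtracted.

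The genes of G1/S and DNA replication, which act earlier in the cycle, also moved both ways: 4 of 32 rose and 5 fell, or 28.1% against 15.6% of all genes, with a median of 0.00 and a range of -0.48 to 0.34. The rises numbered 2 without control array 1 or 2 and without myocilin array 1, 2 or 3. MCM6, of the replicative helicase, fell by 0.48 and TYMS, thymidylate synthase, by 0.39, while CDT1, a licensing factor, rose by 0.34 and MCM10, an initiation factor, by 0.32. TYMS lies on chromosome 18, and with its neighbours subtracted it was at -0.13 (limma adjusted p = 0.158). MCM6, CDT1 and MCM10 stayed past the threshold there. The difference between the mitosis genes and the replication genes was not tested.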

How the data were processed

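Transcript levels were measured on 3 control and 3 myocilin arrays. The authors' deposited values are on a scale read here as log2 (inferred from the values), and each array has a median of 0. How probe intensities were background-corrected, summarised and normalised is not given in the sources used here. Each probe set appears, from the values, to be centred on a reference level. The number of arrays limits the precision.

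Of 41751 probe sets, 37460 had 1 gene in the platform annotation, 1728 several and 2563 were not listed. For 37416 of the 37460 the Entrez identifier matched RefSeq (GRCh38.p14), the source of symbols and chromosomes here. Probe sets of 1 gene were averaged. limma 3.58.1 in R 4.3.3 (lmFit and eBayes, two-sided) was fitted over all 18338 genes, and separately over all probe sets, and tested on simulated data. There it recovered 27 of 67 changes of 0.3 log2 units (40.3%), 51 of 67 of 0.5 (76.1%) and 65 of 66 of 1 (98.5%). Of its 152 calls, 9 were false. A member that did not pass may therefore still differ by 0.3 or less, and in some cases by 0.5. The simulated data gave 152 calls, against 2866 genes called in the real data, so the recovery may differ there. Figures used matplotlib 3.10.9.

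The members, the lists and the tests were chosen with earlier results of these data known. All members were named, and in each other list up to 2 called genes with the largest rise and up to 2 with the largest fall. Words in RefSeq promoters were searched on both strands. Protein lengths and identities, also planned, were not computed. Alternatives were quantile normalisation, median centring, trend and robust fitting, array weights, leaving out probe sets ending in _x_at or _s_at, 1 probe set per gene by ID, the median of probe sets, subtraction of the 50 nearest genes on the chromosome and each array left out in turn.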

Additional observations from a re-analysis of the deposited data

How the results depend on the processing

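No paired analysis was possible because the arrays of the lines share no replicate number in the labels. The members called numbered 3 with 1 probe set per gene and 3 with neighbours subtracted, and 2 to 5 with 1 array left out. The rises numbered 1 once probe sets whose ID ends in _x_at or _s_at were left out, 1 with 1 probe set per gene, 1 with neighbours subtracted and 0 to 3 with 1 array left out, and the falls 4 without those probe sets (CCNB1 at -0.30 and TOP2A at -0.22 added) and 2 to 3 with 1 array left out. Leaving those probe sets out removed 8 members from the fit, CDC20 and MKI67 among them, so these were not tested there. TTK, CDC20 and MKI67 did not pass with 1 probe set per gene, nor TTK without those probe sets or MKI67 with the median of probe sets. KIF2C passed with array weights. Member probe sets that rose numbered 1 without _x_at or _s_at and 0 to 1 with 1 array left out, the falls 1 to 3 and both together 1 to 3. The median over the members was -0.047 without those probe sets, -0.033 with neighbours subtracted and -0.0718 to -0.0524 with 1 array left out.

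Over all genes 2866 were called, 1878 of 15545 without _x_at or _s_at and 1613 to 2220 with 1 array left out. In the other lists 31 genes were called, 19 without _x_at or _s_at, 19 with neighbours subtracted and 17 to 23 with 1 array left out. In the 5 mitosis lists the rises were 6 and the falls 7 without _x_at or _s_at, the falls 7 with 1 probe set per gene and the rises 3 with neighbours subtracted, while 1 array left out gave 5 to 9 and 5 to 8. The G1/S rises were 2 under each of these 3 settings and 2 to 3 with 1 array left out.

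Some members that had not passed changed sign, and did not pass then either: CCNB2 (0.00039), BUB1 (0.0023), KIF11 (-0.0499) and TPX2 (-0.0196) with neighbours subtracted, CDC25C (0.061) without _x_at or _s_at, AURKA (-0.0053) and CENPF (0.028, against -0.17 over both of its probe sets) with 1 probe set, and TPX2 (-0.0032) after quantile normalisation. With 1 array left out BUB1B (-0.0271 to 0.0517), KIF11 (-0.0069 to 0.0838), TPX2 (-0.0167 to 0.0379) and HMMR (-0.0682 to 0.0227) spanned 0. Quantile normalisation, median centring and trend and robust fitting left every count above within 1.5 times, while MYOC, the induced gene, differed by 7.99 and by 5.09 after quantile normalisation. Where a count fell with 1 array left out, the fit had fewer arrays; the cause was not tested otherwise.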

Other observations

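The genes below were chosen after their values were seen. NDC80 works in a kinetochore complex, and its partners on other chromosomes did not pass the threshold: NUF2 (chromosome 1) was at -0.18, SPC25 (chromosome 2) at -0.09 and SPC24 (chromosome 19) at -0.03. The arrays of the lines did not overlap for NUF2 and overlapped for the others. Besides SKA1 and CENPK, the kinetochore genes that fell were CENPH (-0.34, limma adjusted p = 0.032), CENPU (-0.31, limma adjusted p = 0.00653), KNTC1 (-0.26, limma adjusted p = 0.0227) and PMF1 (-0.25, limma adjusted p = 0.0363), on chromosomes 5, 4, 12 and 1. The medians of their 50 nearest genes lay between -0.02 and 0.01. The falls in this list were fewer without control array 1 or 2 or any myocilin array, as given above. Which of these 4 calls were lost then is not given here. CENPH and CENPK belong to 1 subcomplex of the inner kinetochore, and CENPI, another subunit of it, was at -0.04 and did not pass (limma adjusted p = 0.718). In the passenger complex, AURKB at 0.19 and BIRC5 at 0.17 lay above 0, while INCENP was at -0.01 and CDCA8 at -0.11, and none of the 4 passed.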
